A study of Mus musculus with 6 samples.

Results

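Cathepsins are the proteases that do much of the protein breakdown inside lysosomes. Their transcripts were examined in Paneth cells (PCs), which lie at the crypt base of the small intestine and store antimicrobial proteins in granules. The PCs were sorted from mice of strain C57BL/6J lacking Ifnar1, a subunit gene of the type I interferon receptor. The mice had received tumour necrosis factor (TNF) or phosphate-buffered saline (PBS) 15 h earlier, and 3 TNF and 3 PBS mice gave 1 RNA-sequencing library each. All 6 mice carried the Ifnar1 knockout, so the comparison holds no wild-type animal. The labels do not state age, sex, TNF dose or sorting markers.

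The 10 genes were chosen by gene family and Ensembl identifier from the 55414 genes of the count table, with their levels and TNF differences in these libraries already known. They are Ctsa, Ctsb, Ctsc, Ctsd, Ctse, Ctsf, Ctsh, Ctsl, Ctss and Ctsz, and their values are therefore a description of a list picked in view of the data. Another 13 mouse cathepsin genes were looked up beside them. Of these, 11 had no read in any library, Ctsk had 0.200 to 1.21 CPM, and Ctso had 11.0 to 13.6 CPM (edgeR log2 fold change -0.12, adjusted p 0.855). CPM are read counts divided by library size in units of 1e6, with library sizes scaled by trimmed mean of M-values (TMM) factors.

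Cathepsins are made as inactive precursors, carry a mannose 6-phosphate tag to the endosome, and mature there as the compartment acidifies. Most are cysteine proteases of the papain family (Ctsb, Ctsc, Ctsf, Ctsh, Ctsl, Ctss and Ctsz), while Ctsd and Ctse are aspartic proteases and Ctsa is a serine carboxypeptidase. In secretory epithelium they turn over proteins and organelles delivered to the lysosome, and released cathepsins are held in check by cystatins.

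Total counts were 12747484 to 17039511 per library, so a gene without reads could still lie at up to 0.176 to 0.235 CPM before TMM scaling (a limit of 3 counts, for counting error only). The defining PC marker Lyz1 had 134153 to 226165 CPM. TNF replicate 1 stood apart from its group. On the first principal component (48.9% of the variance over 13026 tested genes) it lay at -39.3, next to the PBS libraries (-35.8 to -28.7), while TNF replicates 2 and 3 lay at 63.0 and 73.1. It was kept in the TNF group as labelled, and the cathepsin results are given with and without it. TNF replicate 1 was singled out from these same expression values, as lying next to the PBS libraries. Leaving it out therefore favours calls, and adjusted p values of that fit are descriptive only. In bulk samples, fewer cells of a type and less RNA per cell cannot be told apart.

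Ctsl, Ctsh, Ctsz and Ctsb were higher in TNF replicates 2 and 3 than in any PBS library, with means of those replicates 7.90, 4.34, 4.43 and 2.42 times the PBS mean. Ctsa, Ctsc, Ctsd, Ctsf and Ctss did not pass the test with or without TNF replicate 1. With all 6 libraries, 0 of 9 tested cathepsins passed an adjusted p under 0.05 (edgeR quasi-likelihood test, adjusted over all genes, termed 5% below), as did 0% of all genes tested. DESeq2 called 2 of them (Ctsh and Ctsz) among 259 genes. At an unadjusted p under 0.05 in edgeR there were 12.3% of all genes (1596), of which 1075 were upward. Of the 9 cathepsins there were 5, all upward (Ctsb, Ctsh, Ctsl, Ctss and Ctsz). Without TNF replicate 1, these same genes except Ctss passed 5%, all higher after TNF, giving 4 of 9 against 9.1% of 13660 genes that passed upward. Of the 9, 0 passed downward, against 5.4% of all genes. Because that library was left out in view of its values, these calls are no independent result. A range printed after an adjusted p spans the alternatives to the 6-library fit, of which the fit without TNF replicate 1 is itself 1, and no alternative was run on that smaller fit.

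Promoter windows were read for 7 of the 10 genes from RefSeq (GRCm38.p6), each 250 bases before to 50 bases after a transcript start. Ctsb, Ctse and Ctsh had no window. Windows were searched on both strands for the E-box CACGTG, the core of the site bound by the lysosomal regulator Tfeb, for the interferon-gamma activated site TTCNNNGAA, for the ISRE-like run GAAANNGAA, and for the NF-kB motif. These were present in 7.15%, 8.3%, 8.56% and 8.46% of all 32851 windows, and no match of 1 motif overlapped a match of another in the cathepsin windows. An E-box was found for Ctsa (in a window around a transcript start 901 bases inside the gene), Ctsd, Ctsf and Ctsl, a TTCNNNGAA run for Ctsc, an ISRE-like run for Ctss and an NF-kB match for Ctsz. The upstream parts of 3 windows are shown 5′ to 3′ with matches in capitals, to set a cathepsin that was higher in TNF replicates 2 and 3 (Ctsz) beside Ctss and beside Ctsd, which did not pass 5%. The transcript start of the Ctsl window lies 252 bases inside the gene, and that window is not shown.
Ctsz, chr2:174439040-174439289, minus strand: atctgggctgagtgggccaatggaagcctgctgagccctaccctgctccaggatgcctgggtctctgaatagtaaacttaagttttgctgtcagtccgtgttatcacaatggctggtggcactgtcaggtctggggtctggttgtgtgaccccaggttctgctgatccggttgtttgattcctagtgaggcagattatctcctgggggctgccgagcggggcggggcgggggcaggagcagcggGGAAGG
Ctss, chr3:95526536-95526785, plus strand: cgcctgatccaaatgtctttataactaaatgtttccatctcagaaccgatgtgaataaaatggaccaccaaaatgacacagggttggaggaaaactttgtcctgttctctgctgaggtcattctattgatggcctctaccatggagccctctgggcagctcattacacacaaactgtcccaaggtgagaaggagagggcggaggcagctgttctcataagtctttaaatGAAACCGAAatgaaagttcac
Ctsd, chr7:142387828-142388077, minus strand: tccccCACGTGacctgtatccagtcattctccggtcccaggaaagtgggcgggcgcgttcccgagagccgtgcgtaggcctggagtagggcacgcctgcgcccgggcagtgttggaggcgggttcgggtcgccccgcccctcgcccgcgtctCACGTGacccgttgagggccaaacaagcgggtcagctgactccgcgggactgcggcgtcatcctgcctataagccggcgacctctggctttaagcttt
In Ctsz the NF-kB match begins 6 bases before the start and runs on past it. In Ctss the ISRE-like run begins 21 bases before the start. The E-boxes of Ctsd begin 245 and 98 bases before the start. A match describes the letters only.

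**Figure D1:**
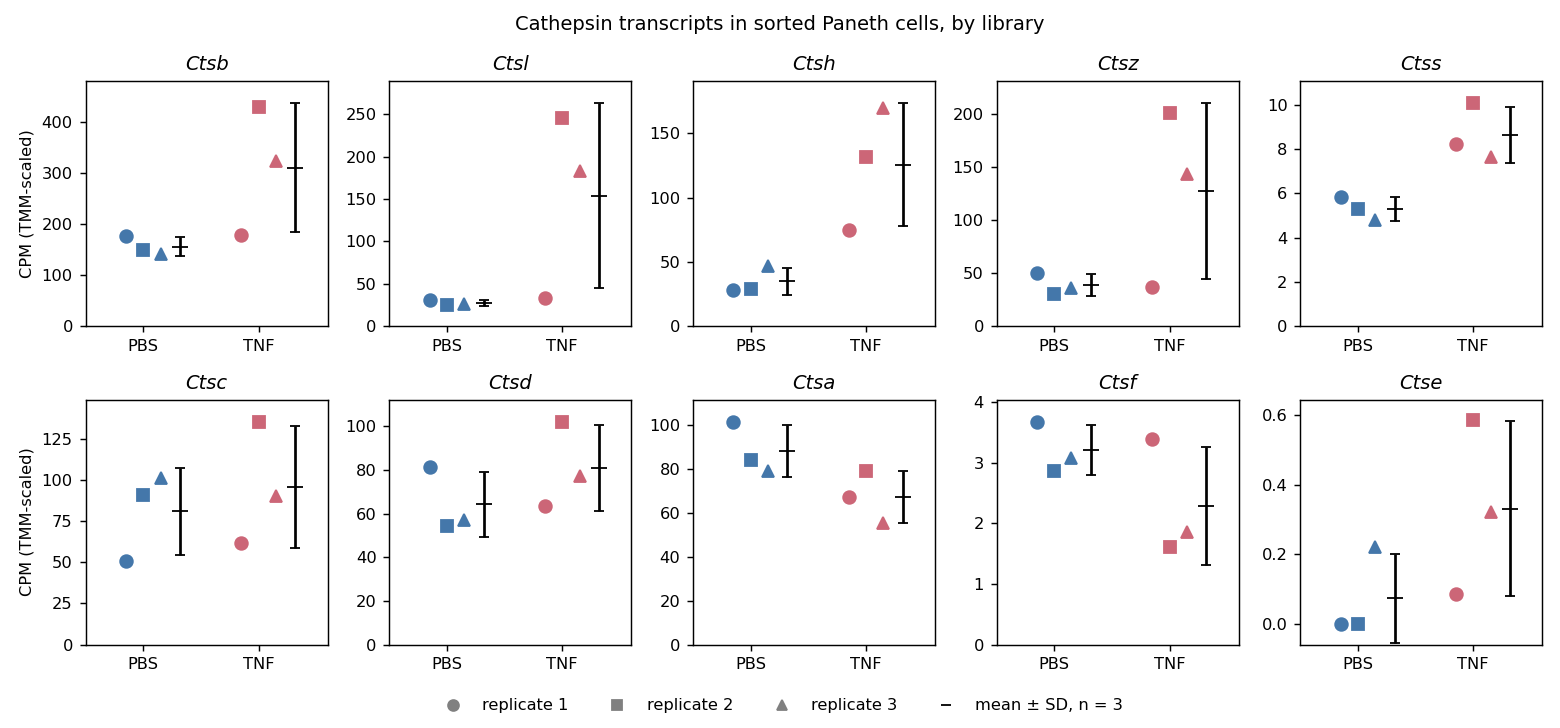
Level of each cathepsin (CPM on TMM-scaled library sizes, linear axis) in the 3 PBS and 3 TNF libraries, with the marker shape giving the replicate number and the black bar the mean ± SD (n = 3). For Ctsb, Ctsl and Ctsz, TNF replicate 1 sits beside the PBS libraries while TNF replicates 2 and 3 lie far above, and for Ctsh and Ctss all 3 TNF libraries lie above PBS.

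Ctsl (ENSMUSG00000021477, GRCm39 chr13:64507151-64518704, minus strand), a lysosomal endopeptidase, varied most of the family on the log2 scale (SD of log2 CPM 1.51 over 6 libraries). Its level was 30.6, 24.8 and 26.0 CPM across PBS replicates 1 to 3, and 33.1, 246 and 183 CPM for TNF replicates 1 to 3. TNF replicates 2 and 3 were thus far above the other 4 libraries, which lay close together. The group means were 27.1 ± 3.04 CPM (SD, n = 3) after PBS and 154 ± 109 CPM after TNF (edgeR log2 fold change 2.50 ± 0.58 SE, adjusted p 0.270). When TNF replicate 1 was left out, the log2 fold change was 3.00 ± 0.22 (SE; adjusted p 1.28e-05, range 1.09e-13 to 0.897), and the mean of TNF replicates 2 and 3 was 7.90 times the PBS mean. TNF replicate 1 was above the highest PBS library by less than counting error, since their exact 95% Poisson intervals were 29.9 to 36.6 and 27.7 to 33.6 CPM.

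Ctsh (ENSMUSG00000032359, chr9:89936205-89958148, plus strand), which mainly trims proteins from their amino end, differed from Ctsl in TNF replicate 1. It had 28.3, 29.2 and 46.8 CPM across PBS replicates 1 to 3 and 74.8, 132 and 170.1 CPM for TNF replicates 1 to 3. Every TNF library was clearly above every PBS library, TNF replicate 1 included. The means were 34.8 ± 10.4 CPM after PBS and 126 ± 47.9 CPM after TNF (edgeR log2 fold change 1.85 ± 0.34 SE, adjusted p 0.270). When TNF replicate 1 was left out, the value was 2.14 (SE 0.25 and adjusted p 3.24e-04, range 2.44e-08 to 0.895).

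Ctsz (ENSMUSG00000016256, chr2:174267304-174280832, minus strand), a carboxypeptidase also called cathepsin X, followed the pattern of Ctsl. It had 50.4, 30.1 and 35.9 CPM after PBS and 37.1, 200.4 and 143 CPM for TNF replicates 1 to 3. TNF replicate 1 lay inside the PBS range, so the groups overlapped. The edgeR log2 fold change was 1.71 ± 0.51 (SE; adjusted p 0.288), and 2.17 without TNF replicate 1 (SE 0.25 and adjusted p 3.02e-04, range 6.20e-07 to 0.897). Of the exonic bases of Ctsz, 29.2% are shared with Nelfcd on the opposite strand. The use of strand in counting is not given in the sources used here, so reads from there cannot be assigned to either gene. Nelfcd itself had 969 counts over all libraries, against 436 to 4097 for Ctsz in single libraries.

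Ctsb (ENSMUSG00000021939, chr14:63358384-63383372, plus strand), an abundant lysosomal protease with endopeptidase activity, had 177, 149 and 142 CPM after PBS and 179, 429.9 and 324 CPM for TNF replicates 1 to 3. TNF replicates 2 and 3 stood far above the other 4 libraries. The 3 TNF libraries were above the 3 PBS libraries, but TNF replicate 1 exceeded PBS replicate 1 by less than counting error (exact 95% intervals of 171 to 187 and 170.2 to 184 CPM). The edgeR log2 fold change was 1.00 ± 0.32 (SE; adjusted p 0.300), and 1.30 without TNF replicate 1 (SE 0.23 and adjusted p 0.00362, range 0.00362 to 0.897). Fdft1, on the opposite strand, shares 15.4% of the exonic bases of Ctsb and had 3697 counts in all.

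Ctss (ENSMUSG00000038642, chr3:95433963-95463717, plus strand), which stays active at neutral pH and cuts the invariant chain of MHC class II, was scarce. Its counts were only 65 to 206 per library, or 5.84, 5.27 and 4.78 CPM after PBS and 8.24, 10.1 and 7.65 CPM after TNF. The groups did not overlap, and TNF replicate 1 lay between TNF replicates 3 and 2. The difference was small beside those above (edgeR log2 fold change 0.71 ± 0.29 SE, adjusted p 0.373) and did not pass 5% without TNF replicate 1 (0.76, adjusted p 0.132, range 0.0871 to 0.897).

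Ctsd, Ctsa and Ctsf did not pass 5% with or without TNF replicate 1. Ctsd (chr7:141929646-141941775), the main aspartic protease of the lysosome, had 81.2, 54.3 and 57.0 CPM after PBS and 63.4, 102 and 77.1 CPM after TNF (edgeR log2 fold change 0.33 ± 0.25 SE, adjusted p 0.622). The groups overlapped, and TNF replicate 2 alone lay above PBS replicate 1. Leaving out TNF replicate 1 gave 0.50 for Ctsd (adjusted p 0.181, range 0.127 to 0.940). Ctsa (chr2:164674778-164682961), which also shields the lysosomal enzymes Glb1 and Neu1 from breakdown, had 101, 83.8 and 78.9 CPM after PBS and 67.0, 78.9 and 55.4 CPM after TNF (edgeR log2 fold change -0.39 ± 0.22 SE, adjusted p 0.493). It was the 1 cathepsin whose 3 TNF libraries lay below all PBS libraries, TNF replicate 2 and PBS replicate 3 being almost level. Its log2 fold change was negative under every alternative, at -0.56 to -0.27, and was -0.37 without TNF replicate 1 (adjusted p 0.312, range 0.162 to 0.936). Ctsf (chr19:4905118-4915986), a cysteine cathepsin, had 3.68, 2.87 and 3.09 CPM after PBS and 3.40, 1.61 and 1.85 CPM after TNF (edgeR log2 fold change -0.50 ± 0.48 SE, adjusted p 0.713). It rested on 23 to 51 counts per library, and gave -0.87 without TNF replicate 1 (adjusted p 0.302, range 0.264 to 0.971).

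The number of family members whose groups did not overlap was 4 of 9 with TNF above PBS (Ctsb, Ctsh, Ctsl and Ctss) and 1 of 9 with TNF below PBS (Ctsa). Over all tested genes the shares were 9.07% above and 7.82% below. The median log2 fold change of the 9 was 0.71 with all libraries and 0.76 without TNF replicate 1, where the medians of all tested genes were close to 0 (-0.000587 and -0.00707). These counts describe a family picked in view of the data and carry no test of their own.

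**Figure D2:**
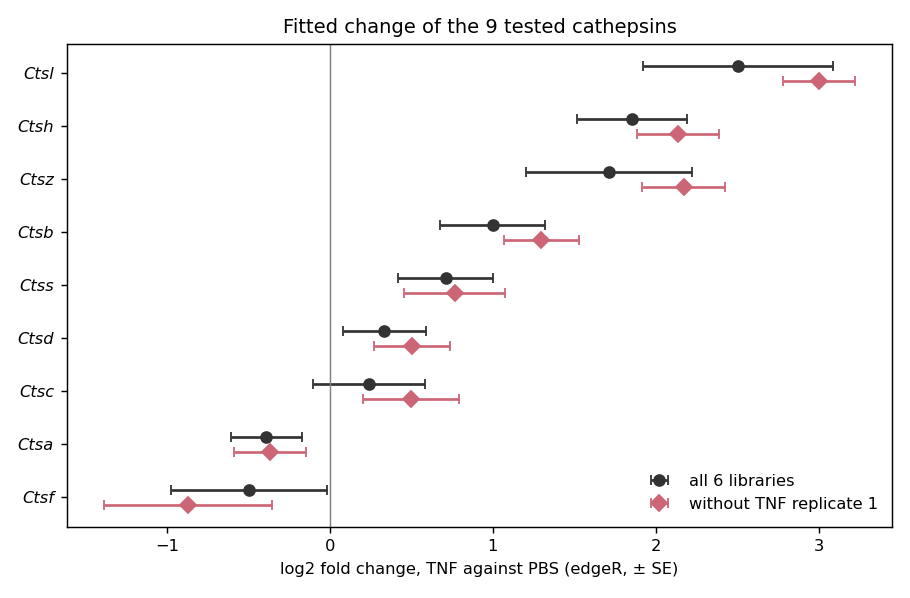
Fitted log2 fold change of TNF against PBS for the 9 tested cathepsins (horizontal axis, edgeR, bars are ± SE), with all 6 libraries (circles) and without TNF replicate 1 (diamonds). Ctsl moves from 2.50 to 3.00 and Ctsz from 1.71 to 2.17 when that library is left out, while Ctsa and Ctsf stay below 0 in both.

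Ctse, the aspartic cathepsin of gastric and immune cells that sits in endosomes, was near the detection limit. It had 0, 0 and 3 counts after PBS and 1, 12 and 4 counts after TNF. A count of 0 allows up to 0.216 and 0.200 CPM in PBS replicates 1 and 2 after TMM scaling. TNF replicate 2 had 0.587 CPM (exact 95% interval 0.303 to 1.03) and TNF replicate 1 had 0.0850 CPM (0.00215 to 0.473). It fell below the low-count filter. In the edgeR fit without that filter its adjusted p was 0.729, and no difference was detectable at this depth.

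Ctsc (chr7:87927092-87960096), or dipeptidyl peptidase 1, activates granule serine proteases in immune cells and varied within both groups. It had 50.6, 90.8 and 101 CPM across PBS replicates 1 to 3 and 61.5, 135 and 90.0 CPM for TNF replicates 1 to 3. The lowest value of each group was its replicate 1, and the groups overlapped (edgeR log2 fold change 0.24 ± 0.34 SE, adjusted p 0.809). Leaving out PBS replicate 1 or TNF replicate 2 gave a negative value (-0.0016 and -0.13), and leaving out TNF replicate 1 gave 0.50 (adjusted p 0.300, range 0.300 to 0.999). Markers of tuft cells, the chemosensory cells of the epithelium, were lowest in the same libraries. The summed level of 8 tuft markers was 473, 1357 and 1682 CPM after PBS and 565, 1127 and 626 CPM after TNF, with all 8 detected in every library. PBS replicate 1 and TNF replicate 1 were thus the lowest for both Ctsc and tuft markers, although the order of the other libraries differed. The part of tuft cells in the Ctsc level was not tested.

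**Figure D3:**
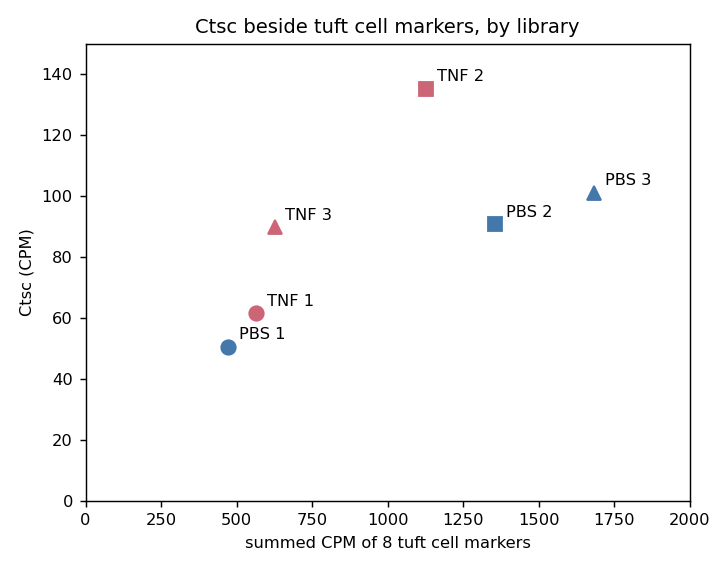
Ctsc level (CPM, vertical axis) against the summed level of 8 tuft cell markers (CPM, horizontal axis) in each library, blue for PBS and red for TNF. PBS replicate 1 and TNF replicate 1 are lowest on both axes, while TNF replicate 2 has the highest Ctsc with a middle tuft marker level.

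Levels of different cathepsins were compared as CPM per kilobase of transcript (canonical transcript of each gene). Ctsd shares 29.2% of its exonic bases with Gm49369 on the same strand. Ctsl shares 5.92% with the pseudogene Gm49230 on the same strand and 26.1% with Gm47123 on the opposite strand. None of these other genes had a count, and how shared reads were counted is not given, so these levels are uncertain. After PBS the highest was Ctsb at 32.6 ± 3.95 (SD, n = 3), followed by Ctsd at 30.2 ± 6.96, Ctsc at 30.0 ± 9.91, Ctsa at 23.8 ± 3.18 and Ctsh at 21.2 ± 6.35. Among these 5, no neighbour in the order differed beyond the spread of the within-library differences. Beyond the spread of Ctsh came Ctsz at 11.3 ± 3.05, Ctsl at 4.59 ± 0.515, Ctss at 3.88 ± 0.391, Ctsf at 1.59 ± 0.207 and Ctse at 0.0340 ± 0.0589, each below the one before in all 3 libraries and beyond the spread. The order was different after TNF. On the same scale Ctsh led at 76.4 ± 29.2, with Ctsb at 65.1 ± 26.4, a difference within the spread. Ctsd followed at 38.0 ± 9.20, Ctsz at 37.1 ± 24.2 and Ctsc at 35.5 ± 13.8, again without differences beyond the spread. Ctsl had 26.1 ± 18.5 and Ctsa 18.2 ± 3.18, also within the spread, and Ctss (6.34 ± 0.926), Ctsf (1.13 ± 0.480) and Ctse (0.153 ± 0.116) stayed last. The place of Ctsl depends on the gene model, because its canonical transcript is 5908 bases long with only 1002 coding bases. Per kilobase of coding sequence, Ctsl had 27.1 ± 3.03 after PBS and 154 ± 109 after TNF, next after Ctsb (153 ± 18.5 and 306 ± 124) in the TNF group, though not apart from Ctsz (138 ± 90.3) beyond the spread.

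Summed over the 10 genes, the family had 529, 469.6 and 495 CPM after PBS and 528, 1336 and 1053 CPM for TNF replicates 1 to 3. TNF replicate 1 had nearly the same total as PBS replicate 1, with a larger share of Ctsh. Ctsh took 10.5% to 17.4% of the summed per-length level after PBS, 25.6% in TNF replicate 1, and 20.1% and 30.8% in TNF replicates 2 and 3. Ctsl took 2.69% to 3.14% after PBS, 3.15% in TNF replicate 1, and 10.4% and 9.24% in TNF replicates 2 and 3. Ctsa went the other way, from 13.0% to 16.7% after PBS to 10.2%, 5.36% and 4.47% after TNF. Ctsb held a similar share throughout, between 18.1% and 22.6%. With coding lengths, the share of Ctsl was 6.02% to 6.53% after PBS and 6.95%, 19.4% and 18.2% after TNF.

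**Figure D4:**
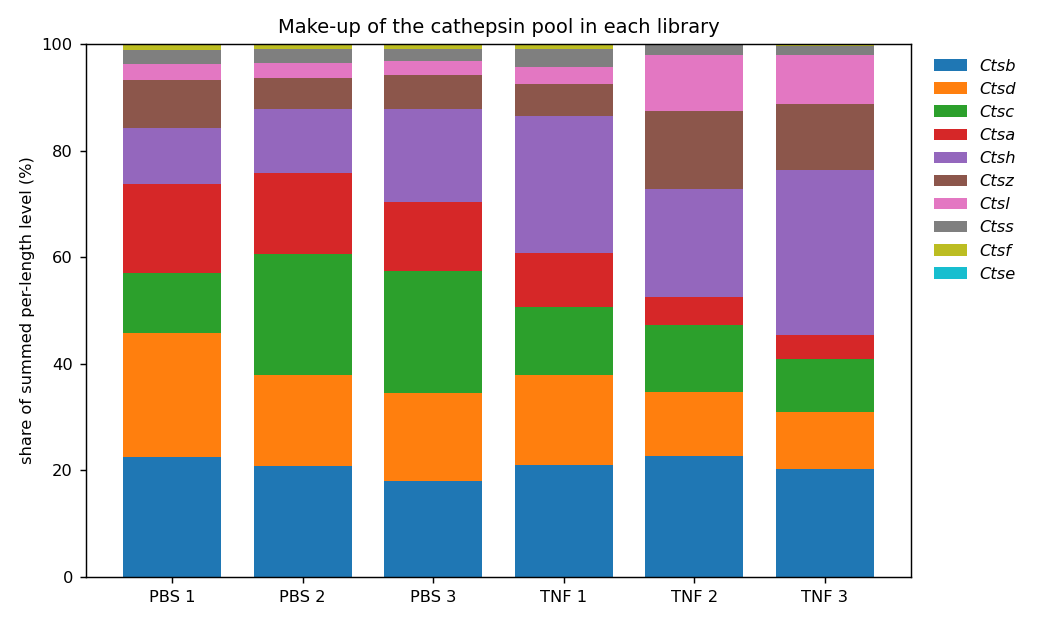
Share of each cathepsin (percent, stacked bars, from counts per length of the canonical transcript) in the summed level of the 10 genes, by library. Ctsl and Ctsz widen in TNF replicates 2 and 3, Ctsh widens in all 3 TNF libraries, Ctsa narrows, and Ctsb stays between 18.1% and 22.6%.

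Of 13 inhibitor genes, 8 had no read in any library, among them the Stfa and Csta genes, and 5 were tested. Their median log2 fold change was 1.26, and 0 passed 5% with all libraries, while 3 of 5 passed upward without TNF replicate 1, against 9.1% of all genes. With all 6 libraries, 3 also passed with DESeq2, with edgeR without the low-count filter, and with limma-voom and sample weights. Among all genes, 259, 690 of 23434 and 1501 of 13026 passed under these settings. DESeq2 was given all 55414 genes of the table, of which only 23434 had any read, so no share is given for it. Cstb, the cytosolic cystatin B that blocks Ctsb, Ctsh and Ctsl, had 23.0, 15.4 and 19.0 CPM after PBS and 29.8, 89.3 and 115 CPM for TNF replicates 1 to 3. All TNF libraries were above PBS (edgeR log2 fold change 2.03 ± 0.43 SE, adjusted p 0.270), and the value was 2.43 without TNF replicate 1 (adjusted p 6.90e-05, range 3.61e-10 to 0.897). Cstb is named after its values were seen. Serpinb6a and Serpinb1a are intracellular serpins known mainly as inhibitors of serine proteases such as Ctsg, which had no read here. Serpinb6a had 89.1 ± 7.73 CPM after PBS and 133, 421 and 614 CPM for TNF replicates 1 to 3 (edgeR log2 fold change 2.13 ± 0.47 SE, adjusted p 0.270). Serpinb1a had 112 ± 22.7 CPM after PBS and 112, 317 and 377 CPM after TNF (1.26 ± 0.41 SE, adjusted p 0.301). Both passed 5% without TNF replicate 1 (log2 fold changes 2.56 and 1.65, adjusted p 8.13e-05 and 0.00112, ranges 1.52e-08 to 0.897 and 0.00112 to 0.915). Cst3, the secreted cystatin C, had 79.8 ± 13.9 CPM after PBS and 84.0 ± 16.9 CPM after TNF (0.07 ± 0.23 SE, adjusted p 0.925). Set per length beside each other, Ctsb was 1.78 to 2.30 times Cstb after PBS, and 1.43, 1.15 and 0.674 times Cstb in TNF replicates 1 to 3.

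Genes listed for the delivery and maturation of lysosomal proteins, not only of cathepsins, differed among themselves. Of 10 tested, 0 passed 5% with all libraries (median log2 fold change 0.096) and 3 passed upward without TNF replicate 1, with 0 downward, against 9.1% and 5.4% of all genes. DESeq2 on all libraries called 1, among 259 genes in all. The 3 that passed without TNF replicate 1 were M6pr, Lgmn and Scarb2. M6pr, a receptor for the mannose 6-phosphate tag, had 97.5 ± 10.4 CPM after PBS and 104, 165 and 144 CPM after TNF. Lgmn, the legumain protease that trims cathepsin chains, had 88.7 ± 11.1 CPM after PBS and 65.6, 178 and 144 CPM after TNF, so TNF replicate 1 lay below PBS. Without it, M6pr gave 0.69 (edgeR adjusted p 0.0446, range 0.0446 to 0.920) and Lgmn gave 0.88 (adjusted p 0.0180, range 0.0180 to 0.929). Scarb2, a lysosomal membrane receptor that carries glucocerebrosidase, had 71.1, 57.1 and 58.6 CPM after PBS and 72.7, 289.5 and 209 CPM after TNF (edgeR log2 fold change 1.61 ± 0.43 SE, adjusted p 0.275), and 2.02 without TNF replicate 1 (adjusted p 2.38e-04, range 7.95e-06 to 0.897). Psap, the saposin precursor, had 115 ± 10.2 and 101 ± 27.4 CPM. Sort1, the sorting receptor sortilin, had 314 ± 23.0 CPM after PBS and 216, 228 and 142 CPM after TNF, all below PBS (-0.68 ± 0.25 SE, adjusted p 0.339). Lgmn and Scarb2 are named after their values were seen.

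The proton pump that acidifies lysosomes had higher mean values after TNF for most subunits. Of 16 V-ATPase genes, 15 had a positive log2 fold change (median 0.41), as had 50.0% of all genes. With all libraries 0 of them passed 5%, while DESeq2 called 2, among 259 genes in all. Without TNF replicate 1, 6 passed upward and 0 downward, against 9.1% and 5.4% of all genes. They were Atp6v1g1, Atp6v0e, Atp6v0b, Atp6v0c, Atp6ap2 and Atp6v1f. For 7 subunits all TNF libraries were above PBS, against 9.07% of all genes. Atp6v1g1, named with Atp6v0c and Atp6ap2 after their values were seen, had 26.5 ± 2.24 CPM after PBS and 41.6, 79.9 and 104 CPM after TNF (edgeR adjusted p 0.270). Without TNF replicate 1 its log2 fold change was 1.81 (adjusted p 2.13e-04, range 7.55e-06 to 0.897). By transcript level the leading 3 were Atp6v0b, Atp6v1f and Atp6v0e. Atp6v0e had 18.6, 24.2 and 27.8 CPM after PBS and 33.1, 49.5 and 70.5 CPM after TNF (edgeR log2 fold change 1.12 ± 0.29 SE, adjusted p 0.270). All 3 TNF libraries were above PBS, and leaving out TNF replicate 1 gave 1.37 (adjusted p 0.00283, range 0.00283 to 0.897). Atp6v0b had 69.7 ± 13.6 and 128 ± 49.4 CPM, and Atp6v1f had 50.6 ± 2.57 and 74.3 ± 14.8 CPM.

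Lysosomal hydrolases other than cathepsins showed no common direction. Of 22 tested, 12 had a positive and 10 a negative log2 fold change (median 0.08), 0 passed 5% with all libraries, and 3 passed upward and 0 downward without TNF replicate 1 (median 0.28), against 9.1% and 5.4% of all genes. Neu1 and Gusb, named after their values were seen, had log2 fold changes of 1.23 and 1.20 in that fit. Neu1 and Glb1 are held in a complex with Ctsa. Neu1 had 27.1, 22.8 and 15.8 CPM after PBS and 14.8, 59.3 and 42.0 CPM after TNF (edgeR adjusted p 0.473 with all libraries). Glb1 had 66.8, 38.2 and 41.5 CPM after PBS and 32.8, 37.4 and 22.5 CPM after TNF. All its TNF libraries were below PBS, TNF replicate 2 and PBS replicate 2 being almost level. Glb1 did not pass 5% with all libraries or without TNF replicate 1 (edgeR adjusted p 0.397 and 0.152). Fuca1, which removes fucose from glycoproteins, had 75.9 ± 2.71 CPM after PBS and 98.0 ± 14.7 CPM after TNF. Asah1, the acid ceramidase, had 72.9 ± 19.0 and 104 ± 34.5 CPM. Hexa, a subunit of hexosaminidase, had 52.1 ± 5.54 and 46.6 ± 14.3 CPM. Lysosomal membrane genes also gave 0 calls of 10 in both fits (median 0.18 and 0.27). Among them Lamp2 and Lamp1, the main membrane glycoproteins, had 341 ± 39.5 and 199 ± 45.9 CPM after PBS and 417 ± 61.2 and 227 ± 32.3 CPM after TNF, and the tetraspanin Cd63 had 229 ± 22.8 and 326 ± 18.0 CPM. The regulators of lysosomal genes had a median of -0.25 over 4 tested genes with 0 calls in both fits. Tfeb, the best known of them, had 5.25 ± 0.928 CPM after PBS and 4.18 ± 1.13 CPM after TNF, Tfe3 10.9 ± 1.23 and 11.1 ± 4.43 CPM, and the repressor Zkscan3 16.8 ± 4.75 and 15.0 ± 6.15 CPM.

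**Figure D5:**
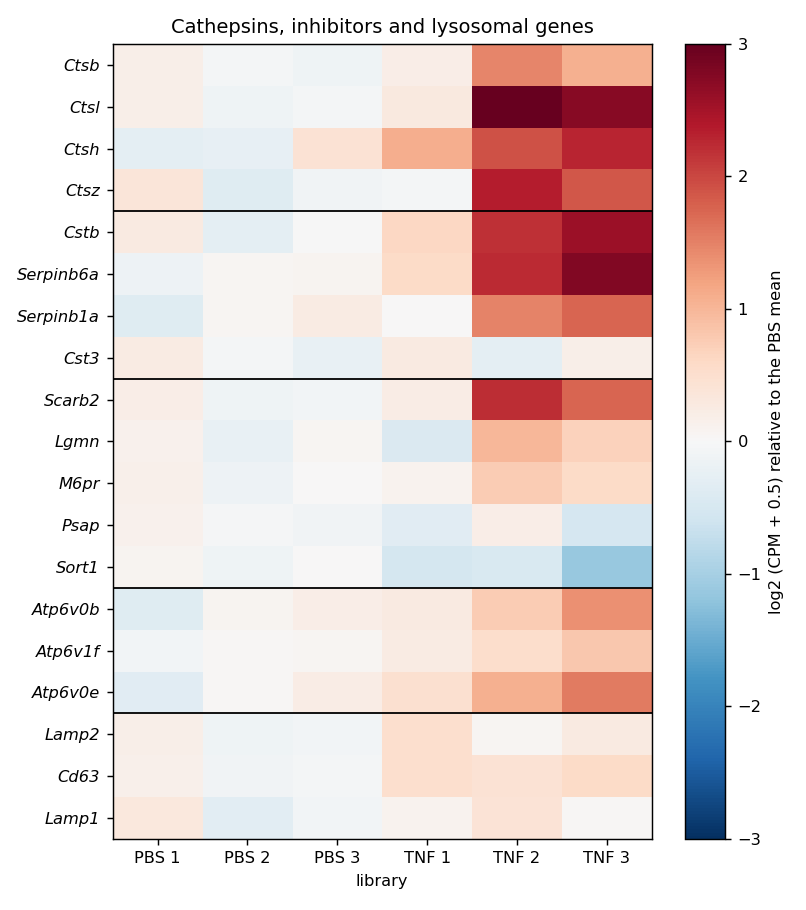
Log2 level of 4 cathepsins, 4 inhibitors, 5 delivery genes, 3 V-ATPase subunits and 3 membrane genes in each library relative to the PBS mean (colour scale, 0.5 CPM added, black lines between the gene groups). TNF replicates 2 and 3 are red for the 4 cathepsins, Cstb, Serpinb6a, Serpinb1a and Scarb2, while Cst3, Psap and Lamp1 stay pale and Sort1 is blue.

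The genes with the pattern most like that of Ctsl, the cathepsin with the largest SD of log2 CPM over the 6 libraries (1.51), were Scarb2, Duox2, Epcam, Bspry and Cirbp. Likeness was Pearson's r of log2 CPM over 6 libraries, at 0.997 for Scarb2 and 0.996 for Cirbp, and is given as a description only, because the libraries fall into separate sets (TNF replicates 2 and 3, and the other 4). Duox2, an epithelial oxidase, had 20.4 to 21.7 CPM after PBS and 24.0, 412 and 254 CPM for TNF replicates 1 to 3. Epcam, an adhesion protein of epithelial cells, had 403 to 471 CPM after PBS and 456, 1080.1 and 970.4 CPM after TNF.

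Markers of cells that are rich in cathepsins were examined for the same libraries. Macrophage and monocyte markers (15 genes) summed to 27.4 to 62.0 CPM after PBS and 49.4 to 50.0 CPM after TNF, with C1qc and Cx3cr1 at 0 in every library, Adgre1 at 0 in all TNF libraries and Csf1r at 0.196 CPM or less. Of the 5 tested, 0 passed 5% with or without TNF replicate 1, with a median log2 fold change of 0.56, and Lyz2, Ptprc and Cd14 had the highest transcript levels of the list. Neutrophil markers (8 genes) summed to 0 after PBS and TNF replicate 1 and to 2.69 and 1.37 CPM in TNF replicates 2 and 3, from S100a8, S100a9 and Ly6g, with Mpo, Elane, Csf3r, Cxcr2 and Retnlg at 0 throughout. With all 6 libraries 0 of the 8 were tested. Without TNF replicate 1, only S100a9 was tested, and it passed 5% upward, against 9.1% of all genes. It passed the low-count filter through the TNF libraries alone, because the PBS sum was 0, so its call is no independent result. The neutrophil transcripts appeared in the libraries with high cathepsin levels, and their part in the result was not tested. T and NK cell markers summed to 0.403 CPM or less, and 0 were tested.

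Markers of other epithelial cells also differed between these libraries. Without TNF replicate 1, 6 of 11 enterocyte, 5 of 8 goblet cell (Tff3, Clca1, Fcgbp, Zg16 and Klk1) and 4 of 8 stem cell markers (Olfm4, Ascl2, Smoc2 and Cdca7) passed downward, against 5.4% of all genes. Upward calls, against 9.1% of all genes, were 2 of 8 enteroendocrine markers (Scg5 and Tac1) and 1 of 10 PC markers (Pla2g2a), while Clps and Habp2 of the PC list passed downward and 0 tuft cell markers passed. The PC markers summed to 224778 to 274666 CPM after PBS and 341772, 176770 and 279243 CPM for TNF replicates 1 to 3. With all libraries 0 genes of these lists passed in the edgeR fit, and their medians were -0.69 (enterocyte), -0.32 (goblet), -0.47 (stem), -0.69 (tuft), 0.32 (enteroendocrine) and -0.15 (PC). That fit tested only 8 of the 11 enterocyte and 7 of the 8 enteroendocrine markers, fewer than the fit without TNF replicate 1. Markers tested only without TNF replicate 1 could pass the low-count filter through the group where they were high. Any calls of these are therefore no independent result. On all 6 libraries DESeq2 called 5 enterocyte and 1 goblet marker downward and 1 enteroendocrine marker upward. Among all genes it called 39 downward and 220 upward. Without the low-count filter, edgeR called 6 of 11 enterocyte, 3 of 8 goblet, 1 of 8 enteroendocrine and 2 of 8 tuft markers downward. It called 1 goblet and 2 enteroendocrine markers upward. Among 23434 genes, that fit called 199 downward and 491 upward. Whether these differences bear on the cathepsin levels was not tested.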

How the data were processed

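RNA from the PCs of 6 mice was sequenced (single-end, Element AVITI, per the labels), and the authors deposited raw read counts by Ensembl identifier for the 6 libraries in 1 table. The submitters' processing notes name FastQC, Trimmomatic 0.39, STAR 2.7.10a, DESeq2 and mm39. How reads were counted, the use of strand and the annotation release: not given in the sources used here. Genes that share exons are therefore uncertain. GENCODE M39 gene models (GRCm39, the same assembly as mm39) gave symbols, positions and lengths for 54749 of 55414 identifiers, the unmatched holding 0.0193% of counts.

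The filterByExpr step (10 counts as the minimum, 15 in total) left 13026 genes, which were scaled with TMM factors and tested two-sided with edgeR 4.0.16 in R 4.3.3 with group as the only term. Each SE is the size of the log2 fold change over the root of its F statistic, and 5% means a Benjamini-Hochberg adjusted p under 0.05. Counting intervals are exact Poisson intervals at 95%, which cover counting error only, since no molecular identifiers are described and reads may not be independent. Each library came from a different mouse. Per-length levels divide CPM by the length of the canonical transcript or its coding part.

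The 10 genes, the 16 other lists of partner and marker genes and the tests were chosen with earlier results of these data known. Each of the 10 is named. From the partner gene lists and the macrophage list, the 3 members with the highest mean transcript level per length are named. Any past 5% with all 6 libraries were to be added (there were 0). The other cell type lists do not follow this rule. Genes there are named mostly for their result without TNF replicate 1 or for their detection, and some lists have no gene named. Any other gene was singled out after its values were seen, apart from the 5 most like Ctsl. Some single list members are left out of the text. Replicate numbers were checked for pairing by the correlation of deviations from the group means. Alternatives were other scalings (relative log expression, library size, upper quartile, without genes above 1% of counts), no filter or a mean CPM of 5, DESeq2 1.42.0, limma-voom 3.58.1 with and without sample weights, each library left out, the replicate number as a block, and a 1% threshold.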

Additional observations from a re-analysis of the deposited data

How the results depend on the processing

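Over 16 alternative fits (Ctsf was dropped by a mean CPM of 5), 127 of 143 log2 fold changes of the 9 tested cathepsins kept their direction and side of 5%, 14 passed 5% where they had not, and 2 changed sign, both of Ctsc, at -0.0016 when PBS replicate 1 was left out and -0.13 when TNF replicate 2 was (range -0.13 to 0.50 over the single libraries left out). The number of cathepsins past 5%, 0 with all libraries, was 4 with no low-count filter, 2 with DESeq2 (Ctsh and Ctsz) and 4 with limma-voom and sample weights, and 0 to 4 when 1 library was left out, the 4 without TNF replicate 1. The number of genes past 5% went from 0 to 690 with no filter, 259 with DESeq2 and 1501 with sample weights, and was 0 to 1980 when 1 library was left out, again highest without TNF replicate 1. Their causes were not tested. With the replicate number as a block, 0 genes and 0 cathepsins passed, and 1395 genes had an unadjusted p under 0.05 against 1596 without it. Deviations of same-numbered libraries correlated at -0.0128, -0.0748 and 0.0311. TNF replicate 1 stood apart from its group, so these values cannot decide whether same-numbered libraries shared a day or batch. Library-size scaling moved the median log2 fold change of all genes to -0.11. Depth limits Ctse (0 to 12 counts per library) and Ctsf, and leaves Ctss with wide counting error.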
